A study of Mus musculus with 23 samples.

Results

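The S100 genes described here are S100a4, S100a6, S100a8, S100a9, S100a10, S100a11 and S100a13, 7 of 17 genes whose symbols begin with S100 among the 32285 genes of the matrices. They were taken by symbol, and all 7 were detected. Their messages were counted as unique molecular identifiers (UMIs, 1 per captured RNA molecule) in droplet single-cell RNA libraries from C57BL/6 mice (C57BL/6N by the methods) aged 2 months. The mice carried a changed tyrosine codon in their own Stat5b gene, giving phenylalanine (Y665F, made with CRISPR/Cas9 and a donor oligonucleotide) or histidine (Y665H, made with an adenine base editor). Lymph node (LN) libraries came from WT (n = 2), heterozygous Y665F (het, n = 3) and homozygous Y665F (homo, n = 2) mice, while spleen (n = 1 per genotype) and bone marrow (BM, n = 2 per genotype) were taken from WT mice and from both mutants. Spleen and BM titles do not give zygosity. The study describes its spleen cells as CD45+, and a caption to the spleen data, which names lymph nodes, gives 1 combined sample of 3 mice per group. The alteration is in the germ line, so every cell of a mutant mouse carried it, in lymphoid and myeloid cells alike.

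S100 proteins are small calcium sensors. Each chain folds into a pair of EF hands, the helix-loop-helix unit that grips a calcium ion, and most family members act as dimers that expose a binding face when calcium rises. S100A8 and S100A9 pair to form calprotectin, one of the most plentiful proteins of the neutrophil cytosol, which binds zinc and manganese and, once released, signals through TLR4 and the receptor RAGE. S100A4 binds nonmuscle myosin and, like S100A6, is known from activated and memory T cells, macrophages and fibroblasts. S100A10 differs from the others in having lost calcium binding, and it holds annexin A2 at the plasma membrane. S100A11 binds annexin A1, and S100A13 takes part in the release of FGF1 and interleukin 1 alpha, proteins without a signal peptide.

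All 7 genes lie on mouse chromosome 3 (GRCm38, GENCODE annotation), in 2 groups. S100a13 (90514435 to 90524581), S100a4 (90603771 to 90606045), S100a6 (90612882 to 90624181) and S100a8 (90668978 to 90670035) are on the plus strand and S100a9 (90692632 to 90695721) on the minus strand. These 5 genes span 181.287 kb, and the ends of S100a8 and S100a9 that face each other are 22596 bases apart. S100a11 (93520488 to 93526287) and S100a10 (93555080 to 93564643) lie farther along, both on the plus strand. S100a8 and S100a9 are the members whose levels moved most together below, so their RefSeq promoter windows (250 bases before to 50 bases after the annotated start, GRCm38.p6, 5′ to 3′ on the gene's own strand) are shown. Capitals mark the letters TATAAA.
S100a8, chr3:90668821-90669120, plus strand: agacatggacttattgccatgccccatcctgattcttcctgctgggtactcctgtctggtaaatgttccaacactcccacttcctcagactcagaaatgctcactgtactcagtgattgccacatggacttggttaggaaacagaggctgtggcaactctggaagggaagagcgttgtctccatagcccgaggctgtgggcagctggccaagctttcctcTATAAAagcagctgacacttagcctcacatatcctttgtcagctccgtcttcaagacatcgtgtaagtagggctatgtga
S100a9, chr3:90695672-90695971, minus strand: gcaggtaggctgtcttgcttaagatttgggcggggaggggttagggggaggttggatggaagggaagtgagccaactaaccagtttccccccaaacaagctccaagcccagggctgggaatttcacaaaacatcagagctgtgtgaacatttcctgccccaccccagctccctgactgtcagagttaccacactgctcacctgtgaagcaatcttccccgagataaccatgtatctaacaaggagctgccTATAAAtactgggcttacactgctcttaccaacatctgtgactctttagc
The motif TATAAA was searched for on both strands and stood 30 bases before the annotated start of S100a8 and 31 bases before that of S100a4, and at the annotated start itself in S100a9. It was present in 13.6% of 32544 promoter windows of this length. TTCNNNGAA, the spacing that STAT dimers are known to bind, was in none of the 6 member windows that RefSeq gave (8.33% of all windows), and TTGCNNAA, the core that C/EBP factors are known to bind, was in the S100a9 window alone (10.8% of all windows). S100a10 had no window in the table. These matches describe the letters in these windows.

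Barcodes under 200 genes or over 10% mitochondrial UMIs were dropped, which left 41204 LN, 19912 spleen and 75185 BM cells. Median UMIs per cell ranged from 410 to 3119 in LN, from 5121.5 to 6707.5 in spleen and from 1626 to 2872 in BM libraries, and total UMIs per library from 2372988 to 16089493, 36644610 to 47020817 and 16131568 to 55554584. Het replicate 3 and homo replicate 1 of the LN set were shallow, with 96.4% and 95.8% of barcodes under 500 genes. No 2 libraries shared more than 2.89% of the smaller one's barcodes. Xist was detected at 704, 237 and 884 CPM (the UMIs of a gene scaled by the total of its library or class) in replicate 1 of WT, Y665H and Y665F BM, which marks female cells in these libraries although the methods name male mice. Replicate 2 held 0.109, 0.116 and 0.587 CPM, so in BM the replicate number and sex run together. Whether replicate 1 of Y665H, the lowest of the first set, also held male cells was not tested. Cells were placed in classes by marker genes that include no S100 gene. LN libraries held 2311 to 5396 T cells and 618 to 2976 B cells each. BM libraries were led by progenitors, with 1133 to 4192 early erythroid cells and 283 to 1343 granulocyte-monocyte progenitors (GMP, gated on Mpo, Elane, Prtn3 and Ctsg), and the WT BM libraries held only 1 and 8 cells of the neutrophil gate.

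The first question was which LN cells carried the calprotectin genes. S100a8 and S100a9 were almost confined to a few cells: 51 of 41204 LN cells held any UMI of either gene. Of these, 40 cells with at least 10 UMIs held 5571 of the 5601 UMIs (99.5%), up to 1118 in 1 cell. By their markers 32 of the 40 were in the neutrophil gate, 4 in the B gate and 2 among T cells of no finer class, and 2 met no gate. No doublet caller was run, and whether the 6 cells in the B and T gates were doublets with a neutrophil was not tested. No UMI of either gene was found in 13666 cells of the regulatory T (Treg), CD4 and CD8 gates, which allows a share of up to 0.0220% of cells with a UMI (counting error only).

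WT replicates 1 and 2 held 142 and 2138 UMIs in 3 and 23 cells of at least 10 UMIs, het replicates 1 to 3 held 2229, 738 and 233 UMIs in 8, 2 and 3 cells, and homo replicates 1 and 2 held 121 and 0 UMIs in 1 and 0 cells. Relative to the depth of the libraries WT stood at 21.2 and 176 CPM, het at 139, 94.1 and 98.2 CPM and homo at 47.8 and 0 CPM, and the range of WT overlapped those of het and homo. The 20 neutrophil-gated cells of WT replicate 2 gave S100a8 at 46320 CPM and S100a9 at 67332 CPM, beside S100a6 at 6791 CPM and S100a11 at 10158 CPM.

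T and B cells of the same library were then set against each other, because RNA freed from broken cells enters all droplets alike. An exact two-sided sign-flip permutation test over 7 libraries was run for each member on UMIs per cell and on CPM (14 tests, smallest possible p = 0.015625 where no library was at 0 in both classes), and fold changes are mean log2 differences of T minus B with their SD. S100a8 was found as 33 UMIs in T cells and 84 in B cells over all libraries, and S100a9 as 23 and 117. For S100a8, T cells were lower in 2 libraries and both classes were at 0 in 5 (log2 difference in CPM −1.30, exact p = 0.5). For S100a9, T cells were lower in 3 libraries and both were at 0 in 4 (−1.66, exact p = 0.25). With so many libraries at 0 in both classes, 0.5 and 0.25 are the smallest p these tests could give, so they say nothing about a difference between T and B cells. Leaving out cells with over 3 UMIs of the pair turned the S100a9 difference to 0.09.

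The other members gave LN T cells a clear profile. S100a4, the myosin-binding member, was close to absent from B cells, with 7 UMIs over all libraries against 903 in T cells (log2 difference in CPM 5.10, SD 2.16, higher in T cells in 7 of 7 libraries, exact p = 0.015625). B cells held 0 S100a4 UMIs in het replicate 1 and both homo replicates, so the size of the difference there depends on the prior. At a minimum of 500 genes per barcode S100a4 was higher in 6 of 7 libraries (4.77, exact p = 0.03125). S100a6 gave 3043 UMIs in T cells and 139 in B cells (2.31, SD 0.583, 7 of 7, exact p = 0.015625). S100a13 was 1.08 log2 units higher in T cells (SD 0.158) and S100a10 0.28 (SD 0.195), both in 7 of 7 libraries at exact p = 0.015625. In het replicate 1, S100a10 was level at 371.4 CPM in T and 371.3 CPM in B cells. Its 7 of 7 and its p rest on counting this near tie as higher. S100a11 was the exception, since T cells were lower in CPM in 6 of 7 libraries (−0.36, exact p = 0.03125) and higher in UMIs per cell in 6 of 7 (0.22, exact p = 0.03125). At a minimum of 500 genes per barcode its CPM difference was −0.11, with 5 of 7 libraries lower, and did not pass the test (exact p = 0.546875). T cells held more UMIs in total than B cells, so its direction depended on the scale.

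Treg stood at the top of the LN T cell classes for S100a4, S100a6 and S100a10 in every library. For S100a4, Treg held 131 and 190 CPM in WT, 203, 182 and 306 CPM in het and 349 and 130 CPM in homo replicates, against 43.7 and 42.1, 23.4, 26.0 and 41.3, and 23.7 and 38.5 CPM in CD4 cells. The lowest Treg library was above the highest CD4 library. For S100a6, Treg held 518 and 312 CPM in WT, 509, 324 and 613 CPM in het and 548 and 316 CPM in homo, against 98.9 and 153, 151, 129 and 93.9, and 108 and 205 CPM in CD8 cells with Ccl5, a chemokine of effector and memory cells, and at most 36.6 CPM in CD8 cells without it. For S100a6 these 3 classes did not overlap, Treg above CD8 cells with Ccl5 above CD8 cells without it. CD4 cells ran from 39.0 to 145 CPM and other T cells from 28.9 to 145 CPM, both overlapping CD8 cells with Ccl5, and other T cells also those without it. S100a10 in Treg was 734 and 867 CPM in WT, 987, 758 and 1378 CPM in het and 1295 and 908 CPM in homo, above every other T and B class, whose highest value was 688 CPM. S100a11 and S100a13 were more even. S100a11 was also highest in Treg among the T and B classes of every library, at 276 to 398 CPM, and ran over 155 to 253 CPM in B and 116 to 189 CPM in CD8 cells without Ccl5, and S100a13 from 76.6 to 154 CPM in Treg, 70.5 to 171 CPM in CD8 cells with Ccl5 and 28.4 to 53.7 CPM in B cells. NK-gated cells, 3 to 29 per library, were too few to fit. In WT they held S100a4 at 151 and 186 CPM and S100a6 at 452 and 399 CPM, and in mutants S100a6 at 1118 to 1846 CPM.

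**Figure D1:**
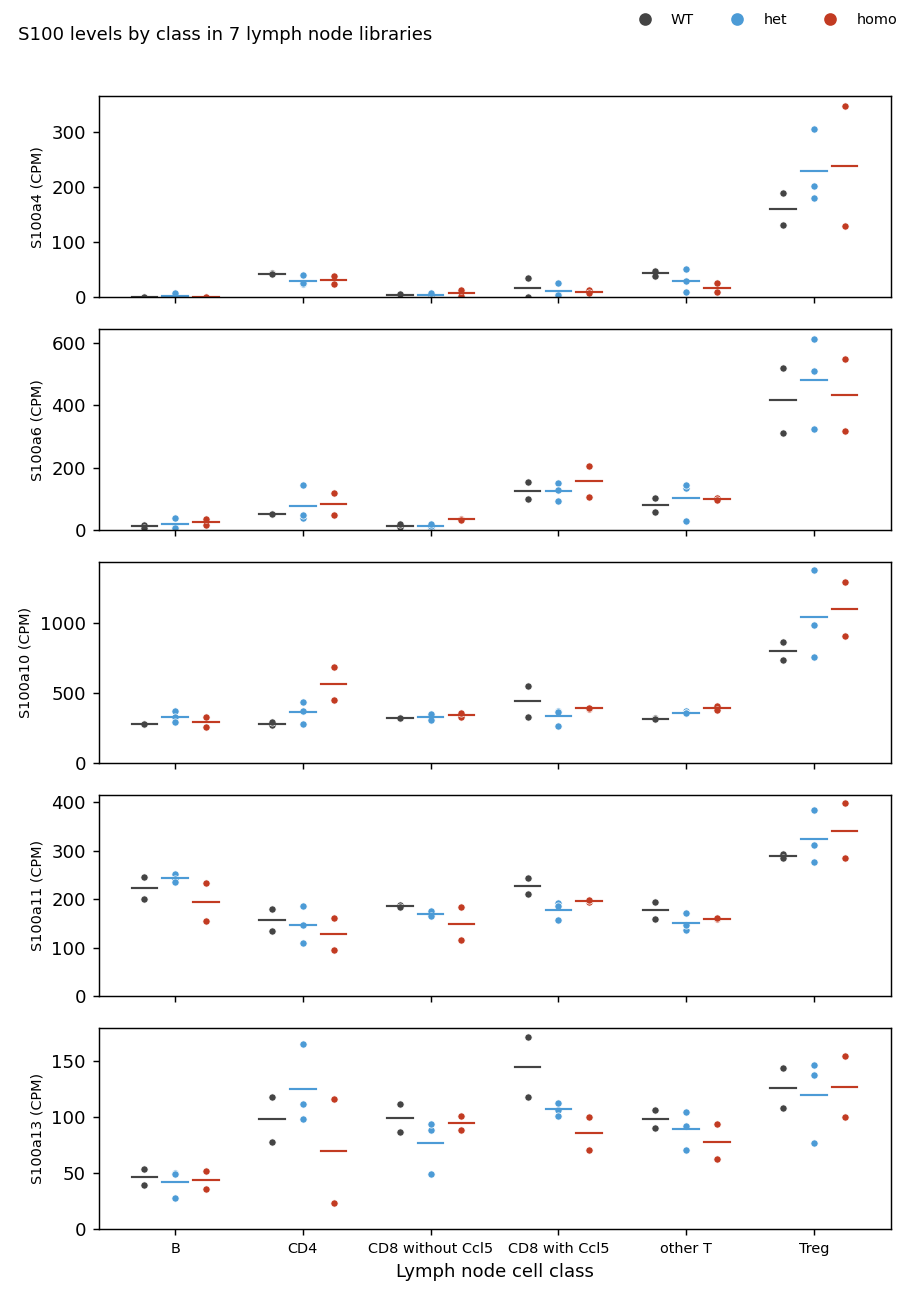
Level of S100a4, S100a6, S100a10, S100a11 and S100a13 in CPM (vertical axes, linear from 0) in 6 LN cell classes. Each point is 1 library (WT grey, het blue, homo red) and each bar the mean of a genotype. Treg points lie above those of the other classes for S100a4, S100a6 and S100a10, and the genotypes overlap in most columns.

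The plot of LN levels also shows the genotypes side by side, which was the second question. edgeR's quasi-likelihood test was fitted to UMI sums per library in 6 classes (B, CD4, CD8 with and without Ccl5, other T and Treg), and a gene was called at an adjusted p under 0.05 (Benjamini-Hochberg over all genes of a class) and an absolute log2 fold change over 1. None of the 28 member and class pairs that could be tested was called in any contrast. The background share of all genes called was 0.169% for homo minus WT, 0.109% for het minus WT and 0.0248% for homo minus het, so 0 of 28 is near it. At an unadjusted p under 0.05 edgeR had 6, 4 and 5 of the 28 pairs in the 3 contrasts, and DESeq2 called 0 and had 3, 0 and 1. No share of all genes at that unadjusted p was set beside these counts or those of whole libraries. They are therefore not read as particular to the members. The median log2 fold change over the 28 pairs was 0.07, 0.02 and 0.05. In whole LN libraries edgeR called 0 of 7 members in each contrast (4, 1 and 2 at an unadjusted p under 0.05, and 3, 1 and 0 for DESeq2, which also called 0), with 2.31%, 0.767% and 0% of all genes called.

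For some members the levels of these libraries lay apart without reaching a call. With 2 libraries on each side, groups can fail to overlap without any difference in level between genotypes. S100a10 in CD4 cells was 275 and 293 CPM in WT and 688 and 450 CPM in homo libraries. The groups did not overlap, and edgeR put the log2 difference at 0.81 (SE 0.199, adjusted p = 0.0441), under the fold threshold. Homo libraries lay above both WT libraries for S100a10 in 4 of 6 classes (CD4, CD8 without Ccl5, other T and Treg), by little in CD8 cells without Ccl5 (320 and 323 CPM in WT, 333 and 358 CPM in homo). How many of all genes separate the genotypes in this way was not counted, and no S100a10 pair was called.
S100a6 in CD8 cells without Ccl5 was 11.6 and 18.7 CPM in WT, 6.1, 14.7 and 21.2 CPM in het and 36.6 and 33.9 CPM in homo. The homo libraries were above all 5 others, with an edgeR log2 fold change of 1.09 against WT (SE 0.361, adjusted p = 0.296) and 1.80 against het (SE 0.371, adjusted p = 0.118). The S100a6 difference from het in CD8 cells without Ccl5 was called when WT replicate 1, WT replicate 2 or het replicate 3 was left out (edgeR adjusted p = 0.0335, 0.0360 and 0.0319). In CD4 cells S100a6 was 51.4 and 52.6 CPM in WT, 39.0, 49.4 and 145 CPM in het and 47.4 and 118 CPM in homo. Its edgeR log2 fold change of homo over WT was 1.12 (SE 0.313, adjusted p = 0.106) and turned to −0.40 without homo replicate 2, and homo minus het went from 1.30 (adjusted p = 0.0632) to −0.23, so 1 library sets the direction in CD4 cells. The same S100a6 difference of homo minus het was called when WT replicate 1, WT replicate 2, het replicate 3 or homo replicate 1 was left out (edgeR adjusted p = 0.0210, 0.00713, 0.0246 and 0.0463). Without WT replicate 1, edgeR called S100a8 and S100a9 lower in the B class of homo (adjusted p = 0.0461 and 0.0486) and het (adjusted p = 0.00517 and 0.0227), with WT then a lone library assumed to vary like the others. All S100a8 and S100a9 UMIs of that library's B class were in 3 cells, and its other 2510 B cells held 0. S100a4 was lower in both homo than in both WT libraries in B, CD4 and other T cells, S100a9 in B cells, S100a11 in both CD8 classes and S100a13 in CD8 cells with Ccl5, with no call. S100a6 was higher in both homo libraries in B cells too, also with no call. The share of all genes that separate in this way was not counted.

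Few genes around the family were called in LN. Of 14 neutrophil genes 11 could be tested in whole libraries, and edgeR called 2 higher in het than in WT (Camp, adjusted p = 0.0387, and Ngp, adjusted p = 0.0417), with a median log2 fold change of 1.47 over the 11 beside 0.00 over all genes. The neutrophil median was −0.43 for homo minus WT and −1.91 for homo minus het, with no call. Among 13 partners and receptors of S100 proteins, edgeR called Anxa2, the membrane partner of S100A10, lower in het than in WT B cells (log2 fold change −2.15, SE 0.312, adjusted p = 0.00693), and Ahnak, a large scaffold that binds S100A10 with annexin A2, higher in whole homo libraries (1.36, SE 0.133, adjusted p = 0.00104). Of 10 genes known to go with memory T cells, Lgals1, a galectin, was higher in homo CD4 cells (1.41, SE 0.259, adjusted p = 0.00200). These lists were written with earlier results of these data known.

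Spleen cells were captured far deeper and held many more cells rich in the calprotectin genes. With 1 library per genotype no difference there was tested, ratios compare these 3 libraries, and intervals cover counting error only. Cells with at least 10 UMIs of S100a8 and S100a9 together numbered 108 in WT, 670 in Y665H and 297 in Y665F, and held 98.2%, 97.5% and 98.9% of the pair's UMIs. The neutrophil gate held 80, 467 and 201 cells. Within it S100a8 was 63796 CPM in WT, 72937 in Y665H and 119781 in Y665F, and S100a9 83241, 96142 and 140533 CPM. Over whole libraries S100a8 was 559, 4710 and 9377 CPM and S100a9 723, 5996 and 10865 CPM. Both mutant libraries were above WT in the whole and in the neutrophil gate, by a larger factor in the whole.

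The remaining spleen cells, those with fewer than 10 UMIs of the pair, were used to separate free RNA from expression in T cells. The mean was 0.142 UMIs per T cell and 0.111 per B cell in WT, 1.75 and 1.35 in Y665H and 1.80 and 1.13 in Y665F. Means over the classes of a library ran over 0.105 to 0.379 (WT), 1.35 to 4.54 (Y665H, the highest being 26 plasma cells) and 1.13 to 2.03 (Y665F). NK cells, in which these genes are not known as products, held 0.105, 1.59 and 1.39. The share of T cells with at least 1 UMI of the pair was 13.2% for WT (exact 95% interval 12.2 to 14.2), 80.2% for Y665H (78.9 to 81.4) and 79.9% for Y665F (78.5 to 81.2). In B cells it was 10.7% (9.22 to 12.4), 69.9% (67.8 to 71.9) and 65.1% (61.6 to 68.6). Over all cells, those rich in the pair included, T cells had median depths of 6114, 5931 and 7406.5 UMIs and B cells of 3897, 3901 and 3836. With all cells thinned to 2000 UMIs, S100a8 was found in 2.37% of T and 2.42% of B cells in WT, 23.9% and 24.7% in Y665H and 20.7% and 22.7% in Y665F. S100a9 gave 2.69% and 3.11%, 28.9% and 31.0%, and 25.2% and 25.6%. Before thinning, S100a8 was in 6.70% and 4.67%, 52.7% and 42.6%, and 53.7% and 40.6% of cells. At equal depth the T cell share was at or below that of B cells for both genes in all 3 libraries. In UMIs per cell, and for S100a8 before thinning, T cells were above B cells in all 3. UMIs that enter all droplets alike make up a smaller part of deeper cells, so neither scale decides the question. No expression in T cells was read from these shares. No profile of empty droplets was used, and the source of these UMIs was not tested.

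The balance of S100a8 and S100a9 in these cells was within 3 percentage points of that in neutrophils. S100a8 made up 45.9%, 43.8% and 44.0% of the pair's UMIs in T cells with fewer than 10 UMIs, and 43.4%, 43.1% and 46.0% in the neutrophil gates of WT, Y665H and Y665F. Relative to Camp, Ngp, Ltf, Lcn2 and Retnlg together, neutrophil granule and secreted products, the pair stood at 5.81, 3.34 and 2.51 in T cells, 4.69, 3.46 and 2.16 in B cells and 6.48, 5.49 and 2.70 in neutrophils. In all 3 libraries neutrophils were higher in this ratio than all T cells pooled and B cells, most so in Y665H, but WT Treg (8.0), other T (7.58) and NK cells (7.25) and Y665F NK cells (3.53) were above their neutrophils. The cells were chosen by a limit on the numerator of this ratio, which holds it down.

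**Figure D2:**
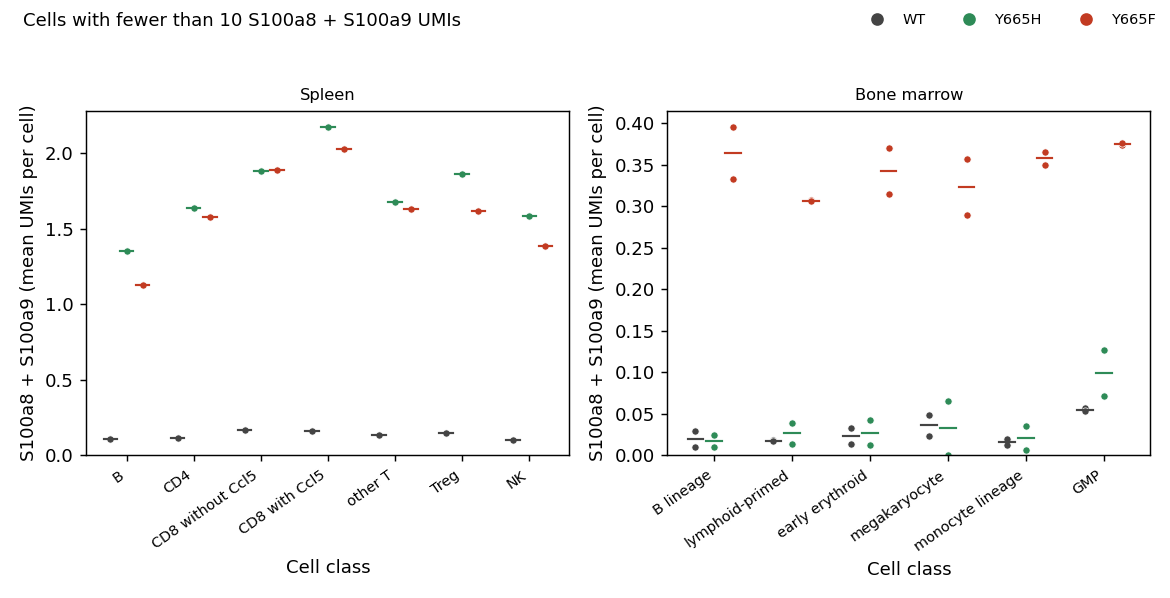
Mean UMIs of S100a8 plus S100a9 per cell (linear axes from 0) among cells with fewer than 10 such UMIs, by cell class, in spleen (left) and BM (right). Each point is 1 library, WT grey, Y665H green and Y665F red, and bars are means. In spleen the Y665H and Y665F points lie above the WT points in every class shown, and in BM both Y665F libraries lie between 0.29 and 0.40 UMIs in the 6 classes.

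The plot of UMIs per cell shows the mutant spleen libraries above WT in B and NK cells as well as in T cells. Ratios of S100a8 between genotypes in a spleen T cell class varied with the gate. For S100a8 in CD8 cells without Ccl5, Y665F over WT was 48.0 and went to 3.60 when Ccl5 was split at 1 UMI in place of 3. Among cells without a UMI of the 5 neutrophil genes, the S100a8 ratio was 7.40 to 12.2 for Y665F and 8.03 to 14.5 for Y665H over Treg, CD4, CD8, B and NK cells. No value for S100a8 or S100a9 in spleen lymphocytes is therefore given as a change in those cells.

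Of the members that T cells themselves carry, S100a4, S100a6, S100a10 and S100a11 were higher in Treg of both mutant spleen libraries. S100a13 was higher beyond its counting interval in Y665F only. S100a4 in Treg was 190 CPM in WT, 457 in Y665H and 623 in Y665F, ratios of 2.41 (95% interval 2.05 to 2.84) and 3.28 (2.84 to 3.81) to WT. S100a6 was 147, 447 and 838 CPM, ratios of 3.03 (2.54 to 3.64) and 5.69 (4.86 to 6.71). S100a10 was 606, 881 and 1121 CPM (1.45, 1.32 to 1.61, and 1.85, 1.70 to 2.02). S100a11 was 162, 292 and 330 CPM, ratios of 1.81 (1.5 to 2.18) and 2.04 (1.73 to 2.41). S100a13 was 117, 134 and 157 CPM, with intervals of 0.90 to 1.47 for Y665H and 1.09 to 1.66 for Y665F. The order WT, Y665H, Y665F held for all 5 members in Treg, though for S100a13 the step from WT to Y665H lay within counting error. How many of all genes had this order was not counted. In Treg with fewer than 10 S100a8 and S100a9 UMIs, S100a6 stayed at 147, 430 and 815 CPM and S100a4 at 190, 459 and 629 CPM. Thinned to 2000 UMIs, 10.0%, 20.6% and 38.0% of Treg held S100a6 and 7.72%, 16.3% and 28.3% held S100a4.

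In the other lymphocyte classes the order of the genotypes varied. For S100a4 and S100a6 alone is the order of Treg given here for CD4 cells, with S100a4 at 91.4, 134 and 171 CPM and S100a6 at 95.3, 169 and 231 CPM in WT, Y665H and Y665F. The S100a6 ratio was 2.43 (2.21 to 2.67) for Y665F. NK cells of Y665F held S100a4 at 302 CPM against 95.4 CPM in WT and 76.5 in Y665H, ratios of 3.17 (2.53 to 3.97) and 0.80 (0.61 to 1.05). NK cells held S100a6 at 488, 594 and 1273 CPM, ratios of 1.22 (1.09 to 1.35) for Y665H and 2.61 (2.36 to 2.89) for Y665F. CD8 cells with Ccl5 went the other way for S100a4, with 153 CPM in WT, 213 in Y665H and 73.2 in Y665F, and were nearly level for S100a6 at 371, 432 and 328 CPM. In these cells the S100a4 ratio of Y665F was 0.48 (0.42 to 0.54), and 0.73 (0.65 to 0.82) with Ccl5 split at 1 UMI.
CD8 cells without Ccl5 held S100a4 at 8.9, 38.7 and 21.8 CPM, ratios of 4.35 (3.40 to 5.64) for Y665H and 2.45 (1.83 to 3.30) for Y665F. B cells held S100a6 at 47.0, 153 and 64.8 CPM, a ratio of 3.25 (2.87 to 3.70) for Y665H. In these classes and in CD8 cells with Ccl5, Y665H lay above Y665F for S100a4 and S100a6. Y665H had the most neutrophils, and in cells with fewer than 10 S100a8 and S100a9 UMIs its S100a6 fell to 91.4 CPM in B cells and 49.2 CPM in CD8 cells without Ccl5, beside 44.4 and 18.3 CPM in WT. Whether neutrophil RNA has a part in the B and CD8 values was not tested.

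In spleen myeloid cells the same genes ran at other levels. Neutrophils held S100a6 at 4588, 5319 and 2993 CPM and S100a11 at 5065, 5349 and 2562 CPM, lowest in Y665F on this scale, and S100a10 at only 15.8, 28.1 and 30.6 CPM. The median depth of these neutrophils was 2925, 3039 and 8640 UMIs, so the order of S100a6 and S100a11 in CPM does not carry over to UMIs per cell. Dendritic-gated cells held S100a4 at 1163, 621 and 292 CPM. Monocyte or macrophage cells, 8, 36 and 17 in number, held S100a4 at 2242, 1981 and 1933 CPM. Over 6 lymphocyte classes and 7 members, 20 of 42 pairs were past 2-fold in Y665F (19 higher) and 18 of 42 in Y665H (all higher), beside 3.88% and 2.36% of all genes with enough UMIs. S100a8 and S100a9, from which no change is read here, made up 12 of the pairs past 2-fold in each mutant. The other 5 members had 8 of 30 pairs past 2-fold in Y665F (7 higher) and 6 of 30 in Y665H (all higher).

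**Figure D3:**
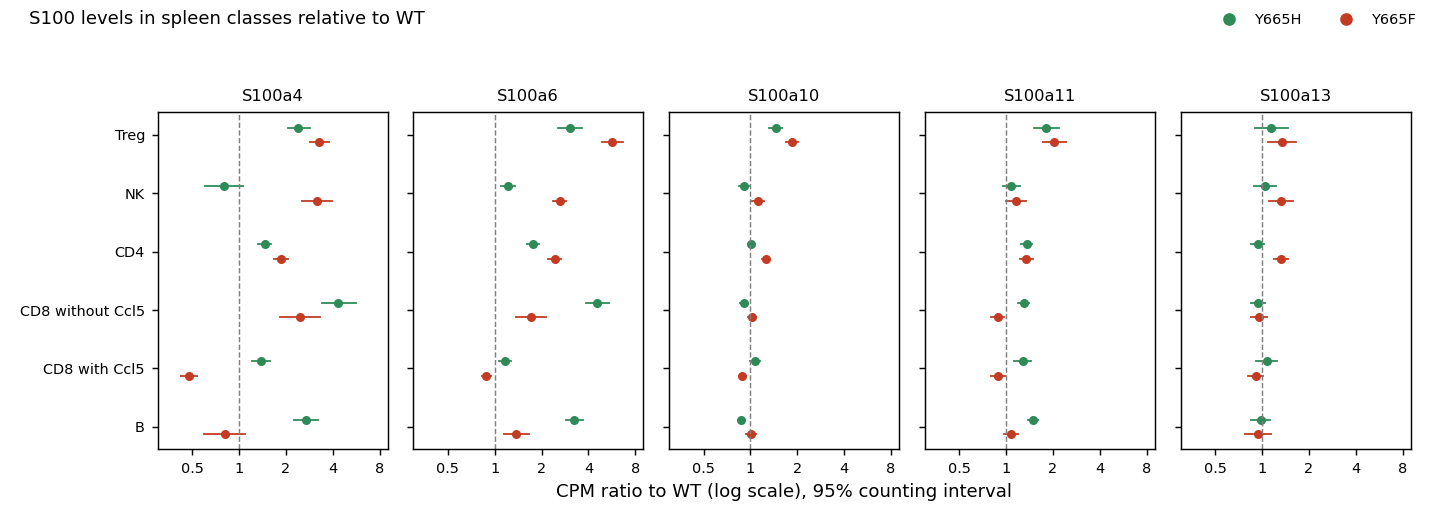
Ratio of CPM to WT (horizontal axes, log scale) for 5 members in 6 spleen classes, Y665H green and Y665F red, 1 library each. Lines are 95% counting intervals and the dashed line marks a ratio of 1. Treg points lie right of the dashed line for all 5 members, and in Y665F S100a4 lies right of it in NK and left of it in CD8 cells with Ccl5.

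The plot of spleen ratios has no replicate error, and a difference between mice cannot be read from it. BM had 2 libraries per genotype and could be tested.

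S100a8 and S100a9 were higher in the Y665F BM libraries, both in whole libraries and in the sums of most cell classes. No cell of any BM library was placed in a hemoglobin-rich erythroid class, and few met the neutrophil gate. Whole-library values therefore describe these cell suspensions and may not stand for whole marrow. In whole libraries S100a8 was 11.8 and 34.2 CPM in WT, 43.2 and 34.1 in Y665H and 997 and 489 in Y665F, and S100a9 9.7 and 30.6, 36.2 and 28.9, and 1175 and 537 CPM. Both Y665F libraries were above all others, and edgeR gave log2 fold changes of Y665F over WT of 4.76 (SE 0.508, adjusted p = 5.65e-05) for S100a8 and 5.15 (SE 0.543, adjusted p = 5.10e-05) for S100a9. The neutrophil gate held 193 and 152 cells in Y665F, 1 and 8 in WT and 16 and 6 in Y665H. In the sum without gated neutrophils S100a8 was 217 and 204 in Y665F against 9.2 and 17.9 CPM in WT, and the log2 fold changes were 3.72 and 4.07. Cells that met the neutrophil gate and another gate stayed in this sum. Of cells with at least 10 S100a8 and S100a9 UMIs, 34 and 55 in Y665F and 1 and 15 in WT met more than 1 gate. A further 12 and 49 in Y665F and 0 and 1 in WT met none, so this sum was not free of cells rich in these genes. With each library left out in turn the whole-library values ran from 4.08 to 5.97 for S100a8 and from 4.40 to 6.46 for S100a9, highest without WT replicate 2, and stayed called.

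Within 6 BM classes (B lineage, lymphoid-primed, early erythroid, megakaryocyte, monocyte lineage and GMP) edgeR called 15 of the 40 member and class pairs that could be tested for Y665F minus WT, all higher. Most of the 15 were of S100a8 and S100a9, and most of the rest were in early erythroid cells, where 19.7% of all genes were called. S100a4 was too low to test in GMP and megakaryocytes. The background was 9.83% of all genes called, with 4.54% called higher. The median log2 fold change over the 40 pairs was 1.13, edgeR had 29 at an unadjusted p under 0.05, and DESeq2 called 11. The 29 had no share of all genes at that unadjusted p set beside it and is not read as particular to the members. With the replicate number as a block, which in BM runs together with sex, edgeR called 22, among them all 15, and the 7 further pairs were S100a6 in B lineage cells, GMP and megakaryocytes, S100a4 in B lineage and lymphoid-primed cells, and S100a8 and S100a13 in GMP. S100a9 was called in 6 of 6 classes (log2 fold change 2.51 to 5.03), S100a8 in 5 of 6 (1.96 to 4.93), S100a6 in 2 of 6 (0.62 to 2.30), S100a13 in 1 of 6 (0.41 to 1.10), S100a4 in 1 of 4 (0.81 to 3.19), and S100a10 and S100a11 in 0 of 6 (−0.09 to 0.39 and 0.33 to 0.93). Class by class the background of called genes was 6.24% in B lineage, 2.81% in GMP, 19.7% in early erythroid, 8.01% in lymphoid-primed, 7.16% in megakaryocyte and 10.5% in monocyte lineage cells. Both Y665F libraries lay above both WT libraries in all 6 classes for S100a6, S100a8, S100a9, S100a11 and S100a13, in 4 for S100a4 and in 3 for S100a10. The share of all genes that separate in this way was not counted, so this is not read as particular to the members.

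S100a8 and S100a9 were higher in the Y665F sums of classes as far from neutrophils as red cell progenitors. Free neutrophil RNA may be part of these sums, and its part was not tested. As in spleen, none of these values is given as a change in the cells of the class. Early erythroid cells held S100a8 at 2.5 and 1.8 CPM in WT, 3.8 and 1.9 in Y665H and 28.8 and 67.2 in Y665F (edgeR log2 fold change of Y665F over WT 4.22, SE 0.392, adjusted p = 7.34e-05). S100a9 followed at 2.0 and 1.8, 3.5 and 2.0, and 31.0 and 70.6 CPM (4.42, SE 0.375, adjusted p = 3.26e-05). In both genes the Y665F libraries stood apart from the 4 others. Monocyte lineage cells held S100a8 at 2.7 and 1.8 CPM in WT, 11.7 and 1.4 in Y665H and 55.5 and 88.0 in Y665F (edgeR 4.93, SE 0.509, adjusted p = 2.17e-06).
Lymphoid-primed progenitors, gated on Flt3 and Dntt, held S100a9 at 5.2 and 2.5 CPM in WT, 7.1 and 5.9 in Y665H and 49.8 and 55.6 in Y665F (edgeR 3.78, SE 0.465, adjusted p = 4.85e-06). B lineage cells held S100a8 at 9.3 and 23.2 CPM in WT, 10.1 and 3.0 in Y665H and 94.8 and 93.3 in Y665F, with edgeR log2 fold changes of 2.19 (SE 0.389, adjusted p = 0.0112) for S100a8 and 2.51 (SE 0.402, adjusted p = 0.00680) for S100a9, which became 3.49 and 4.17 without WT replicate 2. Megakaryocytes, 41 to 415 per library, gave 2.78 for S100a8 (edgeR adjusted p = 0.0210) and 3.48 for S100a9 (edgeR adjusted p = 0.00548). The S100a8 call in megakaryocytes was lost without WT replicate 1, WT replicate 2 or Y665F replicate 2 (edgeR adjusted p = 0.0852, 0.123 and 0.173), and the S100a9 call without WT replicate 2 (3.22, edgeR adjusted p = 0.0863). DESeq2 did not call either gene in lymphoid-primed cells or megakaryocytes. In lymphoid-primed cells the log2 fold change of S100a8 was 3.71 (SE 0.571, edgeR adjusted p = 1.55e-04) and 8.40 without WT replicate 2, since WT replicate 1 held no S100a8 UMI there.

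Neutrophil messages moved with S100a8 and S100a9 in the same sums. Of 14 neutrophil genes edgeR called 14 of 14 higher in whole Y665F libraries (median log2 fold change 3.50, beside 0.04 over all genes), 11 of 11 tested in early erythroid cells (3.60), 5 of 8 in the monocyte lineage (1.72), 3 of 4 in B lineage (2.47), 3 of 4 in lymphoid-primed cells (2.28) and 2 of 8 in GMP (0.99). Camp and Ngp, secondary granule genes, were the 2 called in GMP, at 3.64 and 3.58. In cells with fewer than 10 S100a8 and S100a9 UMIs the pair averaged 0.307 to 0.392 UMIs per cell over 8 classes of Y665F replicate 1 and 0.290 to 0.396 of replicate 2, against at most 0.0567 and 0.0531 in WT and at most 0.127 and 0.189 in Y665H. Their ratio to the 5 neutrophil genes was 1.07 to 1.66 and 1.38 to 1.89 in those classes and 1.65 and 2.33 in the Y665F neutrophil gates. The BM neutrophil gate selects on these 5 genes, and the other cells were chosen by a limit on the pair. Selection thus shapes both sides of this comparison, and nothing is read from it. Among cells with no UMI of those 5 genes, the edgeR log2 fold changes of S100a8 and S100a9 were 3.96 and 4.09 in early erythroid, 4.08 and 4.18 in monocyte lineage, 3.46 and 3.60 in lymphoid-primed, 3.75 and 4.83 in B lineage and 2.35 and 2.94 in GMP cells, all called. In megakaryocytes S100a9 was called at 3.23 and S100a8 was too low to test. Barcodes that met no gate, a class added after the data were seen, gave 3.23 and 3.31, with 2.12% of all genes called. Y665F cells with fewer than 10 UMIs of the pair averaged few UMIs of those 5 genes. Class means were 0.217 to 0.350 in replicate 1 and 0.186 to 0.287 in replicate 2. Most such cells thus held none, so dropping cells with a UMI of the 5 genes cannot remove free S100a8 and S100a9 RNA. The part that RNA from broken neutrophils has in the class values of S100a8 and S100a9 was not tested.

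**Figure D4:**
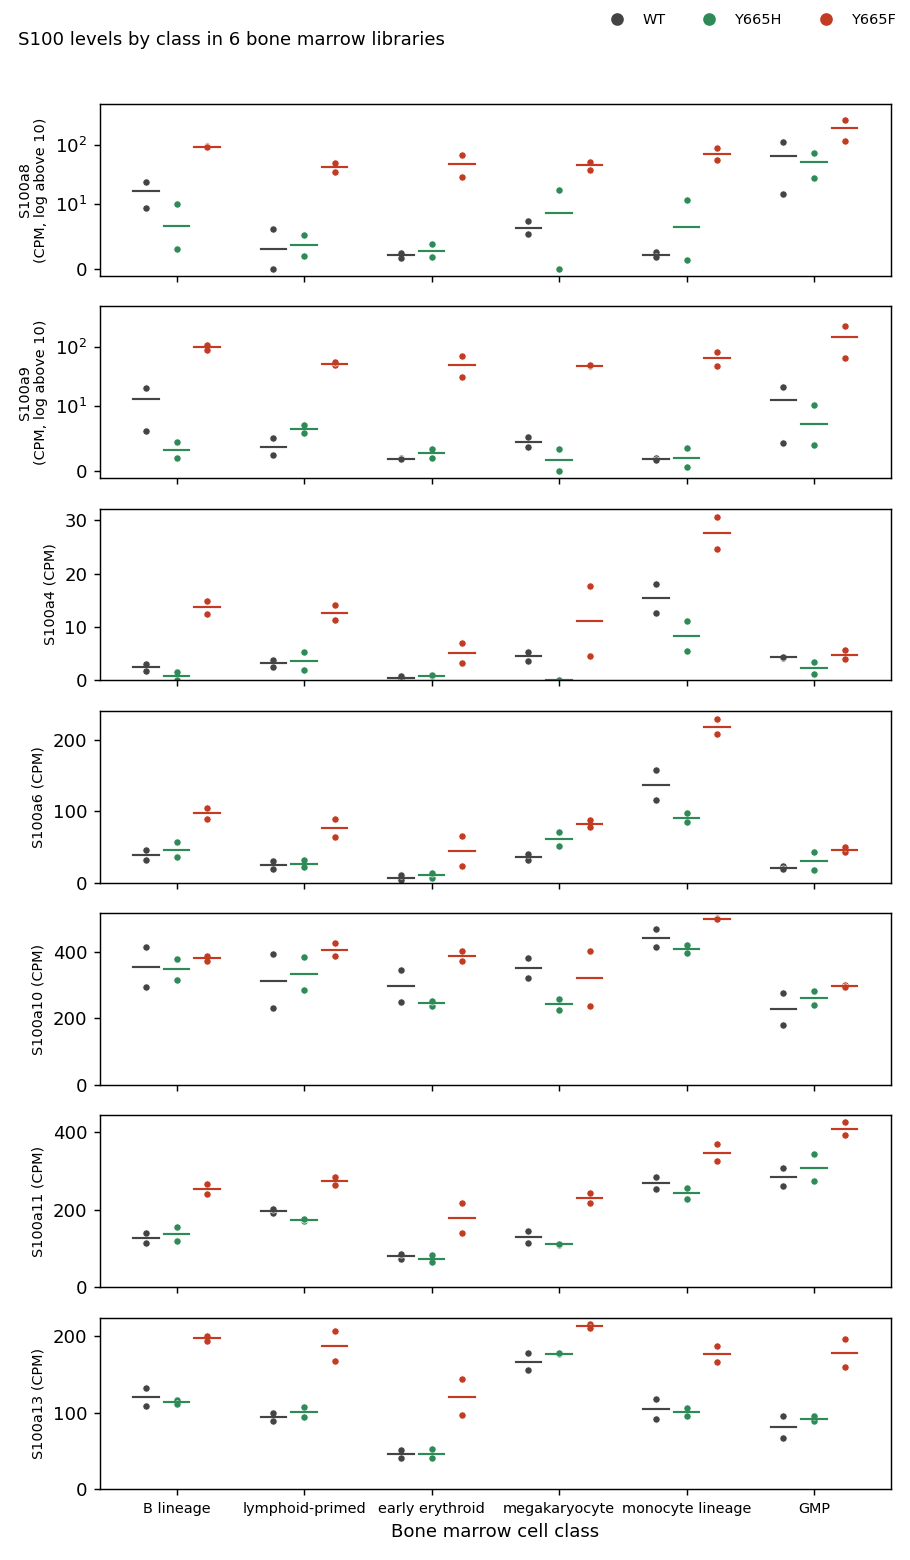
Level of the 7 members in CPM (vertical axes, linear except S100a8 and S100a9, which are on a log scale above 10 CPM) in 6 BM classes. Each point is 1 library (WT grey, Y665H green, Y665F red), and bars are means of a genotype. Y665F points lie above both WT points in all 6 classes for S100a6, S100a8, S100a9, S100a11 and S100a13, and the share of all genes that do so was not counted. S100a11 was called in 0 of 6 classes.

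GMP, the progenitors that give rise to neutrophils and monocytes, carried S100a8 in excess of S100a9 in WT and Y665H. GMP held S100a8 at 114 and 14.6 CPM in WT, 74.5 and 27.2 in Y665H and 265 and 119 in Y665F. In 2 of the 6 libraries a few cells held most of these UMIs. There, 1 of 283 cells held 44 of the 54 S100a8 UMIs in WT replicate 1 and 4 of 1343 cells held 762 of 1009 S100a8 and 613 of 866 S100a9 UMIs in Y665F replicate 1, while cells with at least 10 UMIs of the pair held 102 of 277 S100a8 UMIs in Y665F replicate 2, 54 of 122 in Y665H replicate 1 and none in the other two. Y665F replicate 2 was only just above WT replicate 1, and the log2 fold change of Y665F over WT was 1.96 (SE 0.546, edgeR adjusted p = 0.0561), not called. With the replicate number, which runs together with sex in BM, as a block it was 2.08 (SE 0.350, edgeR adjusted p = 1.51e-04) and called. S100a9 in GMP was 21.0 and 4.4 CPM in WT, 10.4 and 4.1 in Y665H and 228 and 67.1 in Y665F (edgeR 3.97, SE 0.583, adjusted p = 0.00263; without WT replicate 2, 3.17 and adjusted p = 0.0570). S100a8 made up 84.4% (54 of the pair's UMIs against 10 of S100a9, exact 95% interval 73.1 to 92.2) and 76.9% (20 against 6, 56.4 to 91.0) in WT GMP, 87.8% (122 against 17, 81.1 to 92.7) and 87.0% (40 against 6, 73.7 to 95.1) in Y665H GMP, and 53.8% (1009 against 866, 51.5 to 56.1) and 64.0% (277 against 156, 59.3 to 68.5) in Y665F GMP. WT and Y665H GMP carried mostly S100a8, and Y665F GMP lay nearer the neutrophil gate, where S100a8 was 45.4% to 56.8% of the pair in all 6 libraries. Y665F replicate 2 and WT replicate 2 have intervals that overlap. Leaving out cells with at least 10 UMIs of the pair, the S100a8 share in GMP was 62.5% and 76.9% in WT, 90.7% and 87.0% in Y665H and 49.4% and 65.8% in Y665F, so WT and Y665F replicates then overlapped. WT replicate 1 then rested on 16 UMIs.

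**Figure D5:**
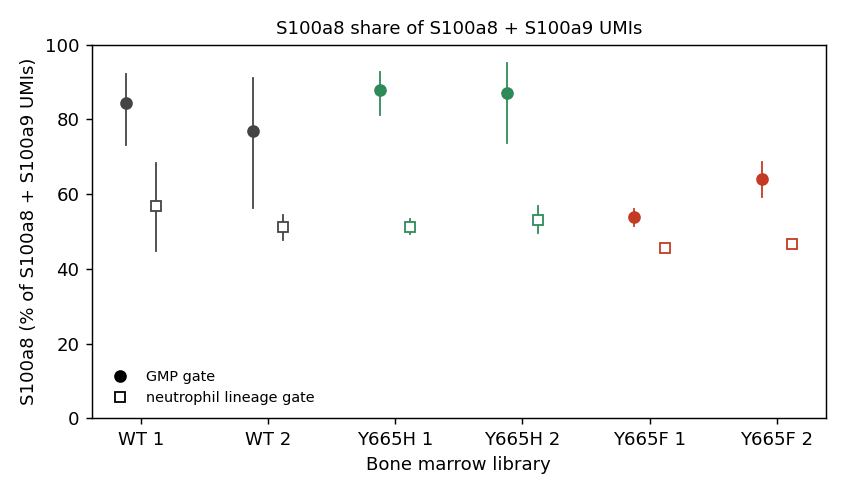
S100a8 as a percentage of S100a8 plus S100a9 UMIs (vertical axis, 0 to 100) in the GMP gate (filled circles) and the neutrophil lineage gate (open squares) of 6 BM libraries. Lines are exact 95% intervals for counting error. GMP points are at 76.9% to 87.8% in WT and Y665H and at 53.8% and 64.0% in Y665F, and neutrophil points at 45.4% to 56.8%.

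The plot of the S100a8 share has few UMIs behind the WT values. With cells thinned to 1000 UMIs and shallower cells left out, S100a8 was found in 2.08% and 0.98% of WT, 3.21% and 1.79% of Y665H and 6.34% and 8.10% of Y665F GMP (unthinned 3.18% and 2.65%, 5.39% and 2.93%, 15.4% and 18.4%). This kept 124 of 283 and 394 of 490 WT, 333 of 594 and 557 of 648 Y665H and 767 of 1343 and 712 of 712 Y665F GMP, so in WT replicate 1 most GMP were too shallow to enter. Early erythroid cells, which should lack the gene, gave 0.68% and 0.28%, 0.53% and 0.20%, and 3.90% and 7.09% at the same depth, with median depths before thinning of 2665 to 5170.5 UMIs against 928 to 3014.5 in GMP. In every library the GMP share was above the erythroid share, in Y665F replicate 2 by little. GMP were shallower than early erythroid cells in all libraries except Y665F replicate 2 (medians 3014.5 against 2698.5 UMIs). UMIs that enter all droplets alike make up a larger part of shallower cells. This comparison therefore does not decide whether GMP express S100a8, and the source of these UMIs was not tested.

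S100a6 and S100a4 were also higher in the Y665F BM libraries. Whole-library S100a6 was 27.8 and 52.1 CPM in WT, 32.3 and 45.5 in Y665H and 161 and 139 in Y665F (edgeR log2 fold change of Y665F over WT 1.68, SE 0.317, adjusted p = 0.00160), and S100a4 3.7 and 4.2, 2.3 and 3.7, and 11.3 and 15.6 CPM (edgeR 1.58, SE 0.297, adjusted p = 0.00160). Y665F stood apart from both other genotypes in both genes. Whole libraries without gated neutrophils gave 1.21 for S100a6 and 1.58 for S100a4, again with cells that met the neutrophil gate and another gate kept in the sum. Leaving out each library gave 1.18 (without WT replicate 1) to 2.42 (without WT replicate 2) for S100a6 and 1.34 to 1.86 for S100a4, all called. The background in whole libraries was 16.8% of all genes called and 8.1% called higher, and 4 of 7 members were called (DESeq2 also 4). By class, S100a6 in lymphoid-primed cells was 31.0 and 19.8 CPM in WT, 21.2 and 31.4 in Y665H and 63.8 and 88.8 in Y665F (edgeR 1.62, SE 0.327, adjusted p = 0.00202; 1.43 and adjusted p = 0.0506 without WT replicate 2). In early erythroid cells S100a6 was 2.9 and 10.8 CPM in WT, 7.0 and 13.4 in Y665H and 24.0 and 64.7 in Y665F, and S100a4 0 and 0.8, 0.9 and 0.9, and 3.3 and 6.9 CPM. edgeR called both, at 2.30 (SE 0.499, adjusted p = 0.00427; 3.66 without WT replicate 2) and 3.19 (SE 0.701, adjusted p = 0.00458; 8.77 without WT replicate 2), though S100a4 stayed at a few CPM. S100a6 in the monocyte lineage, the highest of the 6 classes, was 116 and 158 CPM in WT, 97.3 and 84.6 in Y665H and 209 and 230 in Y665F, with no call (edgeR 0.62, SE 0.281, adjusted p = 0.134). The neutrophil gate held S100a6 at 1156 and 1490 CPM in WT (1 and 8 cells), 2597 and 4304 in Y665H and 6727 and 3253 in Y665F. Among cells with no UMI of the 5 neutrophil genes S100a6 was called in 4 classes, at 1.27 in B lineage, 2.28 in early erythroid, 1.73 in lymphoid-primed cells and 1.29 in megakaryocytes. As above, this choice of cells cannot remove free neutrophil RNA, whose part in the S100a6 values was not tested.

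The annexin partners and S100a13 moved less. S100a13 in early erythroid cells was 40.8 and 51.2 CPM in WT, 40.3 and 52.8 in Y665H and 97.3 and 144 in Y665F (edgeR 1.10, SE 0.248, adjusted p = 0.00507). That call was lost without WT replicate 1 (0.85, edgeR adjusted p = 0.0756) or Y665F replicate 2 (0.91, under the fold threshold), and in whole libraries, at 64.4 and 88.4, 63.8 and 79.9, and 161 and 179 CPM, edgeR's log2 difference of 0.95 (SE 0.260, adjusted p = 0.0131) was just under the fold threshold. S100a11 in whole libraries was 135 and 174 CPM in WT, 127.8 and 150 in Y665H and 299 and 286 in Y665F, 0.72 on the log2 scale (edgeR SE 0.261, adjusted p = 0.0456). Its groups did not overlap, and against WT it stayed under the fold threshold in all 6 classes. Against Y665H it was called in megakaryocytes (1.10, SE 0.297, edgeR adjusted p = 0.0175). S100a10 was the flattest member. In the monocyte lineage it was 415 and 469 CPM in WT, 396 and 422 in Y665H and 500 and 499 in Y665F, and in megakaryocytes 321 and 381, 258 and 225, and 238 and 402 CPM, where the genotypes overlapped.

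Y665H BM gave no calls. edgeR called 0 of 40 class pairs and 0 of 7 members in whole libraries for Y665H minus WT, with 0% of all genes called in the classes and 0% in whole libraries. At an unadjusted p under 0.05 there were 4 class pairs, of S100a8 (−1.51) and S100a9 (−2.10) in B lineage and S100a4 (−0.84) and S100a8 (1.94) in the monocyte lineage, and none in whole libraries. DESeq2 called 0 in both and had 1 class pair at an unadjusted p under 0.05. Again no share of all genes at that unadjusted p was set beside these counts, and nothing is read from them. Set against Y665H, Y665F had 19 of 40 pairs called, all higher, with 14.4% of all genes called (DESeq2 12), and 4 of 7 in whole libraries with 25.6%. Most of the 19 were of S100a8 and S100a9. Whole-library log2 fold changes of Y665F over Y665H were 1.75 for S100a4, 1.52 for S100a6, 3.85 for S100a8 and 4.30 for S100a9. The contrasts of Y665F share its 2 libraries and are not independent of each other.

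Other genes tied to the family in BM were few. Of 10 other S100 genes 3 could be tested in whole libraries, and S100a5 was higher in Y665F (edgeR log2 fold change 3.59). S100a1, a calcium sensor best known from heart muscle, was higher in B lineage (1.49) and lymphoid-primed cells (1.59). Of 13 partners and receptors 11 were tested in whole libraries and 2 were called, a share near the 16.8% of all genes. Tlr4, the receptor of released calprotectin, was higher (1.19) and Bsg, basigin, which also binds S100A9, was lower (−1.76). Bsg was lower in early erythroid (−1.85), monocyte lineage (−1.50) and lymphoid-primed cells (−1.29), and Ahnak higher in early erythroid (1.44) and lymphoid-primed cells (1.36). Of 10 memory T cell genes, which BM cells express too, Tagln2 and Lmna were lower in whole libraries (−1.05 and −1.91), and none was higher. That share of 2 in 10 is also near the background.

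The genes whose levels ran most like each member were found over 48 class sums in BM (7696 genes) and 45 in LN (8221 genes), by Pearson's r of log2(CPM + 1). The points share libraries and depth, and the values are descriptions. In BM the closest to S100a8 were S100a9 (r = 0.938), Lcn2 (0.918) and Camp (0.904), and Camp (0.924) and Ltf (0.865) followed S100a9, all neutrophil granule or secreted products. S100a6 ran with Cyba (0.868), Chil3 (0.811) and Ltf (0.805), and S100a11 with Cyba (0.831), Anxa1 (0.827) and Lcn2 (0.818), Anxa1 being its own annexin. S100a10 had weaker companions in Rnase6 (0.670), H2-Oa (0.663) and Lmo4 (0.652), and S100a13 had Tmsb4x (0.823), Btg2 (0.804) and Cited2 (0.802). In LN, S100a8 ran with S100a9 (0.997), Il1b (0.996) and Cxcr2 (0.982). Among the 45 LN sums only that of WT replicate 2 (20 cells) was of the neutrophil gate, and S100a8 was at 0 in most others. These values, and the place of S100a8 in this comparison, therefore rest largely on that sum. Cxcr2 is also a marker of the gate. S100a6 ran with Pim1 (0.861), Cd44 (0.834) and Ttc39b (0.783), S100a4 with Sept7 (0.827), Cd82 (0.825) and Arf5 (0.806), S100a10 with Rgs1 (0.840), Tnfrsf18 (0.830) and H2afz (0.818), S100a11 with Srgn (0.885), Lcp1 (0.866) and Pglyrp1 (0.855), and S100a13 with Rpl36 (0.896), Rpl27 (0.895) and Rif1 (0.895). Cd44 marks memory T cells and Tnfrsf18 is abundant on Treg.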

How the data were processed

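The deposited values were UMI counts per gene and barcode, made by the authors using Cell Ranger on GRCm38 (5.0.0 in LN headers, 6.0.0 in those of BM and spleen, while the submitters' notes name Cell Ranger 5.0 and Seurat 4.0) and did not normalize. The labels name a 3′ kit and the methods a 5′ kit, so tissues were not compared in level. The 7 LN T cell receptor libraries were not used. The members and gene lists were chosen with earlier results of these data known.

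Barcodes under 200 genes or above 10% mitochondrial UMIs were removed, and no doublet caller was run. Cells were placed by marker genes, none of them an S100 gene: T by Cd3d or Cd3e, Treg by Foxp3, CD8 by Cd8a or Cd8b1, split by Ccl5 (at least 1 UMI in LN, 3 in spleen), B by genes that include Cd79a, Cd79b and Ms4a1, NK by Ncr1, Klrb1c, Klre1, Eomes and Klra8, spleen and LN neutrophils by Csf3r, Cxcr2, Ly6g, Mmp8, Mmp9 and Il1r2, and BM neutrophils by Camp, Ngp, Ltf and Lcn2 at 1% or more of UMIs or 2 of Cxcr2, Mmp8, Mmp9, Retnlg, Il1r2 and Ly6g. Cells meeting more than 1 gate were left out of the classes and kept in whole-library sums. Those meeting none (4.26% to 42.4% of LN, 6.25% to 12.2% of spleen and 35.5% to 60.3% of BM barcodes) entered no class, and were fitted apart as an added alternative. UMIs were summed per library and class, and classes with at least 20 cells in every library were fitted in edgeR 4.0.16 (TMM, filterByExpr, glmQLFit, glmQLFTest, R 4.3.3), with all genotypes of a tissue in 1 model without a block. A call needed an adjusted p under 0.05 over all genes of the fit and a log2 fold change beyond 1 either way, as the study used for its bulk data. Fitting and calling were tested on simulated data. DESeq2 1.42.0, other filters, gates and cell minimums, a replicate block and leaving out each library were the alternatives. LN T and B cells were compared by an exact permutation test with 1 UMI shared between the classes by their size as a prior. Spleen ratios have exact counting intervals, and were repeated with Ccl5 split at 1 UMI, with cells free of neutrophil-gene UMIs and at 500 genes per barcode. Shares were thinned to 500 (LN), 2000 (spleen) or 1000 (BM) UMIs. The labels do not say whether libraries of a genotype came from separate mice, so p-values measure the spread between these libraries, which in LN may be technical. In BM the 2 libraries of a genotype differed in Xist, so their spread includes a difference between animals, sex among it.

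The genes named are the 7 members, genes of 4 lists (other S100 genes, partners and receptors, memory T cell genes, neutrophil genes), at most 4 called genes of a list, and the 3 genes most like a member among those with a mean of at least 10 CPM. S100a4 was under that mean in BM.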

Additional observations from a re-analysis of the deposited data

Results flagged for a closer look

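Whole-library sums of 2 members lay on opposite sides of WT in LN and BM, with groups that did not overlap in either tissue. Neither member was called in LN, and in BM S100a4 was called while S100a11 was under the fold threshold. The share of all genes that separate in this way was not counted. S100a4 had a log2 fold change of −0.54 for homo over WT in LN (29.1 and 25.1 CPM in WT, 13.8 and 19.8 CPM in homo) and of 1.58 for Y665F over WT in BM (3.7 and 4.2 CPM in WT, 11.3 and 15.6 in Y665F). S100a11 had −0.23 in LN (226 and 198 CPM in WT, 154 and 184 CPM in homo) and 0.72 in BM (135 and 174 CPM in WT, 299 and 286 in Y665F). The difference between the tissues was not tested. The tissues hold different cells, which is part of any whole-library value.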

How the results depend on the processing

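In LN classes the count of called member and class pairs was 0, and also 0 with DESeq2, with cells free of neutrophil-gene UMIs and with the replicate block, over the 3 contrasts together. It was 1 at a minimum of 500 genes per barcode, 8 with no filter on low counts, 2 with the stricter T gate, 1 without both shallow libraries (added after seeing the data) and 1 with no minimum fold. Leaving out each LN library gave 0 to 6 (6 without WT replicate 1, 2 without WT replicate 2, 2 without het replicate 3 and 1 without homo replicate 1), and whole LN libraries gave 4 with no filter. In BM, Y665F minus WT had 15 called pairs and 13 to 17 with 1 library left out. Y665F minus Y665H had 19, 12 with DESeq2 and 11 to 19 with 1 library left out, the lowest without Y665H replicate 1. With the replicate block Y665F minus WT had 22, Y665F minus Y665H 19 and Y665H minus WT 0 in BM classes, and whole BM libraries had 4, 4 and 0. Deviations of same-numbered BM libraries from their group means correlated at 0.287 (WT and Y665H), 0.0367 (WT and Y665F) and 0.282 (Y665H and Y665F), and those of LN libraries at −0.160 (WT and het), −0.0962 (WT and homo) and 0.0725 (het and homo). The main fits did not take the numbers as pairs, although in BM they run together with sex, which then adds to the spread. None of the 47 single-member results followed across settings changed its call with the block, while 7 further pairs of Y665F minus WT were called with it. S100a9 in LN T over B cells turned to 0.135 in UMIs per cell and 0.0877 in CPM (log2) when cells with over 3 S100a8 and S100a9 UMIs were left out. S100a6 in LN CD4 cells turned to −0.396 (homo minus WT) and −0.229 (homo minus het) without homo replicate 2, while without homo replicate 1 they were 1.26 and 1.43. For single members, other settings kept 239 values on their side of the threshold, 5 passed it and 14 fell below it. With 1 library left out these numbers were 247, 7 and 28, and 2 turned direction. The cause of these shifts was not tested.

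Precision in LN is set by the shallow libraries and by 27 to 190 Treg per library, in WT BM by few neutrophils, and in spleen by 1 library per genotype. A class without a call, at 2 or 3 libraries per genotype, does not show that levels were equal.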
